A study of Mus musculus with 6 samples.

Results

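The hedgehog genes of the ovary were taken as the 9 rows of the deposited expression table named Ihh, Dhh, Ptch1, Smo, Hhip, Gli1, Gli2, Gli3 and Sufu, of 33036 features in all. Every one of them was found, and all 9 passed the filter on low values. RNA of whole ovary, from female C57BL/6J mice, was sequenced in 2 groups of 3 libraries. The first group had lived in a hypobaric chamber at a simulated 6500 m in the titles and series text (5000 m in the sample descriptions), with a pressure of 43.12 kPa and 8.1 kPa of oxygen, and is called hypobaric hypoxia here. The other was kept at the local pressure of Lanzhou (1500 m in the titles, 1588 m in the series text, 83.56 kPa, 17.8 kPa of oxygen) and is called normal pressure. All mice had received levonorgestrel and ethinylestradiol by gavage to synchronise their cycles, with doses of 0.1 and 0.02 mg/kg labelled for the hypoxia samples only. Ages are given as 8 weeks in the series text and as 6 to 8 weeks in the descriptions, and exposure as 15 days in the series text but as 15, 16 and 17 days for replicates 1, 2 and 3 in the descriptions. The control labels give 12 hours of light with 12, 13 and 14 hours of dark. Each group held 15 mice and all libraries carry batch 1. The labels do not tie a library to a mouse or a pool of mice, so the p-values measure the spread between libraries, which may be technical.

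Hedgehog ligands are secreted proteins that bind the membrane protein PTCH1. Without ligand, PTCH1 holds the transducer SMO inactive, and the GLI transcription factors are kept in check by SUFU or processed to repressors. With ligand, SMO acts at the primary cilium and GLI proteins switch on targets that include Ptch1, Gli1 and Hhip themselves. In the mouse ovary, granulosa cells of growing follicles make Ihh and Dhh, and the cells that respond lie in the theca and the surrounding stroma.

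The values are TPM, a unit in which reads are divided by transcript length and scaled to 1 fixed total per library, so levels can be set side by side between genes. The test was limma on log2(TPM + 1) over all 17120 features that reached 1 TPM in at least 3 libraries, with Benjamini-Hochberg adjusted p under 0.05 as a call, and fold changes on this scale understate the change of low genes. Of all features tested, 18.3% were called, 11.1% as higher and 7.20% as lower in hypobaric hypoxia. The split depended on scaling, since 60.7% of the calls were higher in TPM as deposited and 46.8% after median-ratio scaling. It also depended on normal-pressure replicate 2, without which 46.4% of the calls were higher. Normal-pressure replicate 2 stood apart in composition, with 37.3% of its TPM in protein-coding genes other than Zfp949 against 42.2% to 45.7% in the other 5 libraries, and it was the lowest of its group for 7 of the 9 hedgehog genes. The ovarian identity of the tissue showed in the granulosa markers Foxl2 and Amh and the oocyte markers Zp3 and Gdf9, each above 15 TPM in every library. Ovgp1, a marker of oviduct epithelium, was also present at 294 ± 104 TPM in hypobaric hypoxia and 585 ± 127 TPM in normal pressure (SD, n = 3 each). In whole ovary, fewer cells of a type and less RNA per cell cannot be told apart.

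Of the 9 genes, 5 rose under hypobaric hypoxia by limma and none fell (none at an unadjusted p under 0.05 either), beside 11.1% of all features called as higher. The genes that rose were both ligands Ihh and Dhh, the receptor gene Ptch1 and the factor genes Gli1 and Gli2. The genes Smo, Sufu, Hhip and Gli3 did not pass the test. The median log2 fold change over the 9 was 0.42, beside 0.08 over all features tested. Without normal-pressure replicate 2, the count was again 5, with Smo in place of Gli2. The median log2 fold change was then 0.26, beside 0.00128 over all features tested. The hypoxia libraries lay above every normal-pressure library for 7 of the 9 genes, a pattern that 27.6% of all tested features showed (39.2% were apart in either direction). The ranges overlapped for Hhip and Gli3.

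**Figure D1:**
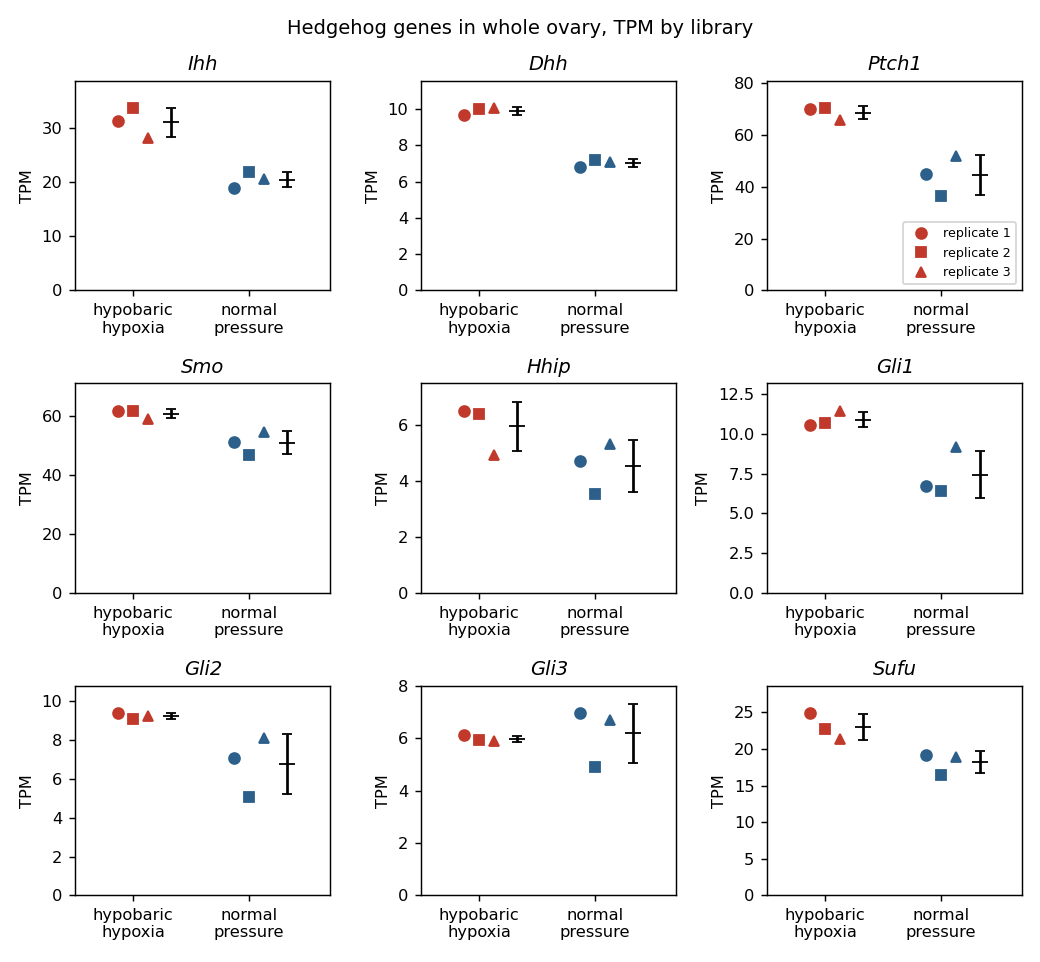
TPM of the 9 hedgehog genes (vertical axis, starting at 0) in the 3 hypobaric hypoxia libraries (red) and the 3 normal-pressure libraries (blue), with symbols for replicates 1 to 3 and the mean ± SD in black beside them. The groups are apart for Ihh, Dhh, Ptch1, Smo, Gli1, Gli2 and Sufu and overlap for Hhip and Gli3, and normal-pressure replicate 2 (square) is the lowest of its group in 7 of the 9 panels.

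Ihh encodes Indian hedgehog, a ligand of granulosa cells. It measured 31.20, 33.59 and 28.20 TPM in hypobaric hypoxia replicates 1 to 3, against 18.96, 21.81 and 20.62 TPM in normal-pressure replicates 1 to 3. The lowest hypoxia library was well above the highest normal-pressure library, and the gap between the groups exceeded the spread within either. The log2 fold change was 0.57 (SE 0.11, limma adjusted p = 0.00211), or 1.49-fold, and Ihh was called under all 17 processing alternatives. Dhh encodes Desert hedgehog, the second granulosa ligand. It measured 9.66, 10.03 and 10.04 TPM in hypobaric hypoxia, against 6.81, 7.20 and 7.09 TPM in normal pressure. Both groups were tight and did not overlap. Its log2 fold change was 0.44 (SE 0.11, limma adjusted p = 0.0111), and the adjusted p was 0.0514 without hypoxia replicate 2. Shh, which encodes the third mammalian ligand, was at or below 0.03 TPM in all 6 libraries and was not tested. The sum of Ihh and Dhh ran from 38.24 to 43.62 TPM in hypobaric hypoxia and from 25.77 to 29.01 TPM in normal pressure.

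Ihh was the more abundant ligand in every library. Its level was 3.13 ± 0.284 times that of Dhh in hypobaric hypoxia and 2.91 ± 0.123 times in normal pressure (SD, n = 3 each), and these ratios overlapped (exact two-sided permutation p = 0.3). The 15 genes of the granulosa marker list summed to 2889 to 3215 TPM in hypobaric hypoxia and 2445 to 2626 TPM in normal pressure, with 5 called higher (Esr2, Fst, Gja1, Amhr2 and Kitl) and 2 lower (Inhba and Cyp19a1), beside 11.1% and 7.20% of all features. Leaving out 1 library gave 2 to 5 higher and 1 to 4 lower. The count was 2 higher without hypoxia replicate 1 or 2 or normal-pressure replicate 1, and 3 without hypoxia replicate 3 or normal-pressure replicate 3. It was 1 lower without hypoxia replicate 2 or normal-pressure replicate 1, and 4 lower without normal-pressure replicate 2. Inha, the most abundant gene of the list, averaged 1323 ± 89.2 TPM in hypobaric hypoxia and 1146 ± 48.6 TPM in normal pressure and did not pass the test (limma adjusted p = 0.309). The granulosa-defining genes Foxl2 (76.8 ± 6.30 and 66.9 ± 3.96 TPM) and Amh (109.5 ± 4.96 and 93.6 ± 4.32 TPM) did not pass the test, nor did the FSH receptor gene Fshr (8.90 ± 0.898 and 11.0 ± 0.976 TPM), each given for hypobaric hypoxia first and normal pressure second. Fshr was called lower under each of the 3 other scalings and without normal-pressure replicate 2 (limma adjusted p = 0.0397). Under the same 3 scalings, Gatm was also called lower and Nr5a2 higher. No marker of the list was at 0 in all libraries, and the part of granulosa content in the ligand values was not tested.

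In the mouse, the oocyte growth factor GDF9 is known to act on granulosa cells to promote expression of these ligands. Its gene Gdf9 measured 44.12, 47.67 and 33.32 TPM in hypobaric hypoxia, against 23.09, 25.65 and 29.86 TPM in normal pressure. Bmp15, which encodes a related oocyte growth factor, measured 12.23, 13.57 and 10.87 TPM in hypobaric hypoxia, against 6.38, 6.91 and 8.28 TPM in normal pressure. Both rose, with log2 fold changes of 0.64 (SE 0.14) and 0.69 (SE 0.13) and limma adjusted p of 0.00415 and 0.0014. All 10 tested oocyte markers, which include this pair, were called higher, beside 11.1% of all features, and 8 to 10 were when 1 library was left out and 9 under each of the 3 other scalings. Their sum was 158 to 193 TPM in hypobaric hypoxia and 97.4 to 130 TPM in normal pressure. With no filter on low values, Gdf9 (limma adjusted p = 0.0707), Nlrp5, Nobox, Ooep, Oosp1 and Dppa3 were not called. The part of oocyte content in these values was not tested.

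Ptch1 encodes the ligand-binding receptor and is itself a classical target of the pathway. It measured 69.95, 70.35 and 65.90 TPM in hypobaric hypoxia, against 45.13, 36.62 and 51.95 TPM in normal pressure. The 3 hypoxia values were close together and above all normal-pressure values, which were more spread. Its log2 fold change was 0.63 (SE 0.12, limma adjusted p = 0.00249), or 1.54-fold, and it too was called under all 17 alternatives. Smo encodes the transducer that PTCH1 restrains. It measured 61.63, 61.59 and 58.80 TPM in hypobaric hypoxia, against 51.18, 46.69 and 54.45 TPM in normal pressure. The groups did not overlap, but Smo did not pass the test, with a log2 fold change of 0.25 (95% interval 0.03 to 0.48, limma adjusted p = 0.106). It was called under each of the 3 other scalings, at smaller log2 fold changes of 0.17 to 0.21, and without normal-pressure replicate 2 (limma adjusted p = 0.0443). It was not called when any other library was left out.

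Hhip encodes a membrane-anchored decoy that binds the ligands, and it is another known target. It measured 6.52, 6.42 and 4.94 TPM in hypobaric hypoxia, against 4.73, 3.55 and 5.35 TPM in normal pressure. Hypoxia replicate 3 lay below normal-pressure replicate 3, so the groups overlapped. The log2 fold change was 0.33 (95% interval 0.02 to 0.64, limma adjusted p = 0.125). Hhip was called without hypoxia replicate 3 (limma adjusted p = 0.0458), with protein-coding genes alone and with the replicate block. It was not called when any other library was left out or under the 3 other scalings. Over the 17 alternatives its limma adjusted p reached 0.325.

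The GLI factors did not move alike. Gli1 encodes an activator whose own transcription is a standard readout of the pathway, and it measured 10.59, 10.68 and 11.46 TPM in hypobaric hypoxia, against 6.76, 6.42 and 9.16 TPM in normal pressure. All hypoxia libraries were higher, and normal-pressure replicate 3 came nearest to them. Its log2 fold change was 0.51 (SE 0.13, limma adjusted p = 0.0131), and it stayed called in each alternative except the one with no filter on low values (adjusted p = 0.0893). Gli2 encodes the main activator that acts first on a signal, and it measured 9.38, 9.11 and 9.22 TPM in hypobaric hypoxia, against 7.07, 5.08 and 8.11 TPM in normal pressure. The hypoxia values were nearly equal while the normal-pressure values varied. Its log2 fold change was 0.42 (SE 0.14) with a limma adjusted p of 0.0472, close to the threshold. Gli2 was not called without normal-pressure replicate 2 (log2 fold change 0.26, adjusted p = 0.0584) or without hypoxia replicate 1, 2 or 3 (adjusted p = 0.0784, 0.0553 and 0.0527).

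Gli3 encodes the factor that mostly acts as a repressor after processing. It measured 6.13, 5.92 and 5.89 TPM in hypobaric hypoxia, against 6.96, 4.89 and 6.72 TPM in normal pressure. The hypoxia values lay inside the normal-pressure range. Its log2 fold change was -0.03 (95% interval -0.31 to 0.25, limma adjusted p = 0.899). Sufu encodes the cytoplasmic protein that binds and restrains GLI factors, and it measured 24.86, 22.72 and 21.40 TPM in hypobaric hypoxia, against 19.22, 16.47 and 18.93 TPM in normal pressure. The groups did not overlap, yet the log2 fold change of 0.32 (95% interval 0.08 to 0.56) narrowly missed the threshold at a limma adjusted p of 0.0569. Sufu was called under all 3 other scalings, at 0.24 to 0.28. It was not called when any 1 library was left out, with a pseudocount of 0.1 or 0.5, or with no filter on low values. Over the 17 alternatives its limma adjusted p reached 0.29.

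**Figure D2:**
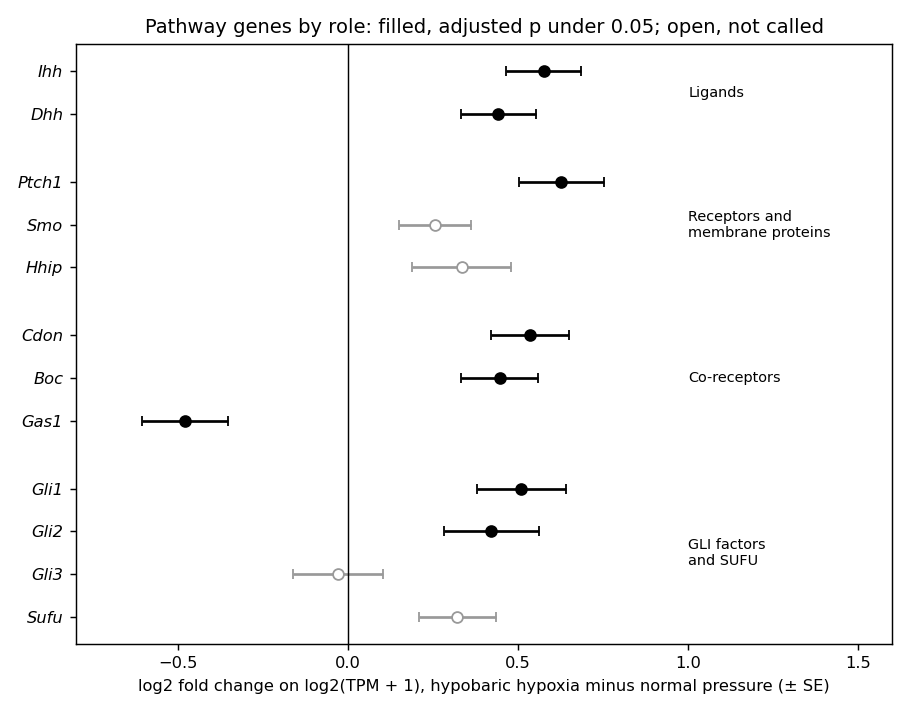
Log2 fold change on log2(TPM + 1) with its SE (horizontal axis) for 12 hedgehog ligands, receptors, co-receptors and GLI-pathway genes grouped by role, filled where the limma adjusted p was under 0.05. Ligands, Ptch1, Cdon, Boc, Gli1 and Gli2 lie to the right and are filled. Smo, Hhip and Sufu also lie to the right, at 0.25, 0.33 and 0.32, and are open. Gas1 lies to the left at -0.48, and Gli3 sits at -0.03.

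A rescaling of a library multiplies all of its values alike, so ratios of a pair of genes inside the same library do not depend on it. For 8 such ratios, chosen after the values were seen, 3 libraries against 3 allow no exact two-sided permutation p below 0.1, and no ratio can pass 0.05. The Gli1 to Gli3 ratio was 1.73, 1.80 and 1.95 in hypobaric hypoxia, against 0.971, 1.31 and 1.36 in normal pressure. The Gli2 to Gli3 ratio was 1.53, 1.54 and 1.57 in hypobaric hypoxia, against 1.02, 1.04 and 1.21 in normal pressure. For both, every hypoxia library was above every normal-pressure library, at the smallest p the design gives (p = 0.1, exact permutation, 0.2 after adjustment over the 8 ratios). The Gli1 to Gli2 ratio overlapped between the groups, at 1.18 ± 0.0575 in hypobaric hypoxia and 1.12 ± 0.154 in normal pressure (SD, n = 3 each, exact permutation p = 0.7).

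The balance of receptor to transducer also differed in order. The Ptch1 to Smo ratio was 1.13, 1.14 and 1.12 in hypobaric hypoxia, against 0.882, 0.784 and 0.954 in normal pressure (exact permutation p = 0.1). Ptch1 was thus above Smo in 3 of 3 hypoxia libraries and below it in 3 of 3 normal-pressure libraries. The Hhip to Ptch1 ratio was lower in every hypoxia library, at 0.0865 ± 0.0100 against 0.102 ± 0.00412 in normal pressure (exact permutation p = 0.1, n = 3 each). The Ptch1 to Ihh ratio overlapped, at 2.22 ± 0.122 in hypobaric hypoxia and 2.19 ± 0.450 in normal pressure (exact permutation p = 1, n = 3 each). The Gli1 to Ptch1 ratio also overlapped, at 0.159 ± 0.0129 in hypobaric hypoxia and 0.167 ± 0.0150 in normal pressure (exact permutation p = 0.6, n = 3 each).

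**Figure D3:**
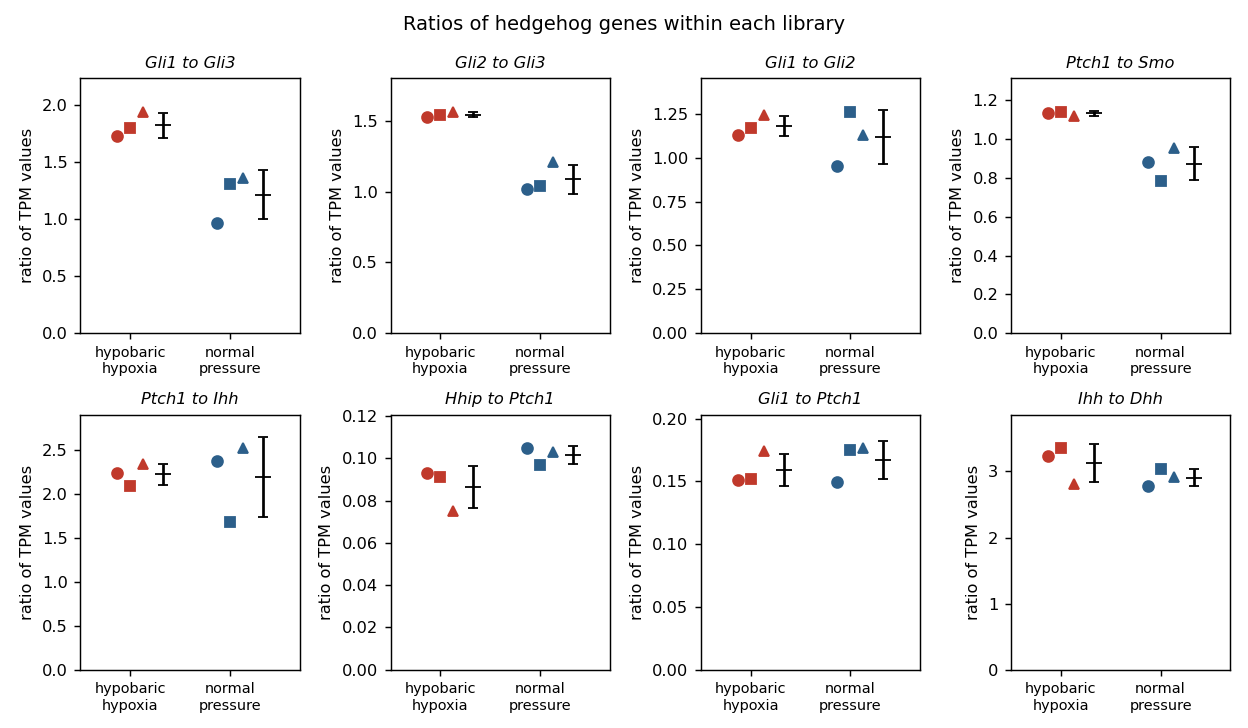
Ratio of the TPM values of a pair of hedgehog genes within each library (vertical axis, starting at 0), with hypobaric hypoxia in red and normal pressure in blue, circles, squares and triangles for replicates 1, 2 and 3, and mean ± SD in black. Gli1 to Gli3, Gli2 to Gli3 and Ptch1 to Smo are higher and Hhip to Ptch1 is lower in every hypoxia library, and the other 4 ratios overlap.

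Levels per transcript length spanned about the same order in both groups. In hypobaric hypoxia the order of mean TPM was Ptch1 (68.7 ± 2.46), Smo (60.7 ± 1.62), Ihh (31.0 ± 2.70), Sufu (23.0 ± 1.75), Gli1 (10.9 ± 0.478), Dhh (9.91 ± 0.217), Gli2 (9.24 ± 0.136), Gli3 (5.98 ± 0.131) and Hhip (5.96 ± 0.885). In normal pressure it was Smo (50.8 ± 3.90), Ptch1 (44.6 ± 7.68), Ihh (20.5 ± 1.43), Sufu (18.2 ± 1.51), Gli1 (7.45 ± 1.49), Dhh (7.03 ± 0.201), Gli2 (6.75 ± 1.54), Gli3 (6.19 ± 1.13) and Hhip (4.54 ± 0.914), each as mean ± SD with n = 3. The ranges of Gli3 and Hhip overlapped in hypobaric hypoxia. In normal pressure the ranges overlapped between Smo and Ptch1, between Ihh and Sufu, and between each neighbour from Gli1 to Hhip in that order.

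The annotated spans overlap other genes at 5 of the 9 loci in RefSeq's GRCm38.p6 annotation, and strand-specific counting is not stated, so reads there cannot be assigned with certainty. Gli1 (chromosome 10, 127329882 to 127341579) shares its edge with Arhgap9, which averaged 1.64 TPM in hypobaric hypoxia and 2.09 TPM in normal pressure. Gli3 (chromosome 13, 15463723 to 15730026) shares its start with the noncoding Gm6556, at 0.397 TPM in hypobaric hypoxia and 0.340 TPM in normal pressure. The genes inside Smo, Hhip and Gli2 were not analysed here. The ligand genes Ihh (chromosome 1, 74945315 to 74951672) and Dhh (chromosome 15, 98881615 to 98898562), Ptch1 (chromosome 13, 63508328 to 63573460) and Sufu (chromosome 19, 46396896 to 46488804) overlap no other RefSeq gene.

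Promoter windows of RefSeq, from 250 bases before to 50 bases after an annotated start on GRCm38.p6, were matched for 8 of the 9 genes. They are shown for the called genes Ihh, Dhh, Ptch1 and Gli2 and, for contrast, for the uncalled Gli3, so that windows of genes with and without a change stand side by side. Capitals mark CCACCC, the core of the GLI binding consensus GACCACCCA, or its reverse complement GGGTGG, and also CACGC, the reverse complement of the hypoxia response element core GCGTG.
Ihh, chr1:74951623-74951922, minus strand: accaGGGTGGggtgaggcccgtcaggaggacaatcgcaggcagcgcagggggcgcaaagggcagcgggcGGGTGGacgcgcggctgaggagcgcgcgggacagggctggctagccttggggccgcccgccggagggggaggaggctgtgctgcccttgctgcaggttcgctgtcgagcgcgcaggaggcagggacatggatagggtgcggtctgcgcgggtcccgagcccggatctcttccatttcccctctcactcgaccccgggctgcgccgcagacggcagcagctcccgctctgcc
Dhh, chr15:98898491-98898790, minus strand: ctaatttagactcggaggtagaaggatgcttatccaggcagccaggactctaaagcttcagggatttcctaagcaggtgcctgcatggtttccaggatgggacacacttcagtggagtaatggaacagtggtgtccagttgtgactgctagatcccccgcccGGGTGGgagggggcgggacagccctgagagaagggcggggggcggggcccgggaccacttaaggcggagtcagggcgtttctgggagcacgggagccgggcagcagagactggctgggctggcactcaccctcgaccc
Ptch1, chr13:63565686-63565985, minus strand: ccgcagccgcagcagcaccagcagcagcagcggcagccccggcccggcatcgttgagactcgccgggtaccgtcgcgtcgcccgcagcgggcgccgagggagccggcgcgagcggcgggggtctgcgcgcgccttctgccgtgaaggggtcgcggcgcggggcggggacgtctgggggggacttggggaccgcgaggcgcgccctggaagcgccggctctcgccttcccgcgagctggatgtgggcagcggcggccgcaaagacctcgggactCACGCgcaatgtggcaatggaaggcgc
Gli2, chr1:119053570-119053869, minus strand: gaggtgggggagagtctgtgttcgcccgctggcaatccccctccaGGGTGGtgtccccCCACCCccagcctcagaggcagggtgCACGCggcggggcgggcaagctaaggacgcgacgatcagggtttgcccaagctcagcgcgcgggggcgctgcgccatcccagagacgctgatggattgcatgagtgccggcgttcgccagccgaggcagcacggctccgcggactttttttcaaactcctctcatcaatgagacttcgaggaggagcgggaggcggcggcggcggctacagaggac
Gli3, chr13:15463473-15463772, plus strand: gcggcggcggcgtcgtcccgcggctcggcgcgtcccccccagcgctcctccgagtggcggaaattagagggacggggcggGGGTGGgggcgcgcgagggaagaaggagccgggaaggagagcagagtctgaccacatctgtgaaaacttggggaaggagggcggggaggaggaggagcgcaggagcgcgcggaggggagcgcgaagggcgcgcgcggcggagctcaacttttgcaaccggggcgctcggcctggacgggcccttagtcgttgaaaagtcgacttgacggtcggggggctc

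The full consensus GACCACCCA was searched on both strands and lay in none of the 8 windows, and in 0.253% of all 32851 windows of this length. A match with exactly 1 mismatch was also in none of the 8, beside 6.55% of all windows. The core CCACCC, which lies inside the consensus, was in 6 of the 8 windows (Ihh, Dhh, Smo, Hhip, Gli2 and Gli3) and in 31.5% of all windows. The core GCGTG was in 4 of the 8 (Ptch1, Smo, Gli2 and Sufu) and in 32.4% of all windows, and the core ACGTG was in none of the 8 and in 19.6% of all. The 8 windows held 56.3% to 76.3% G and C, against a median of 52.7% over all windows. The starts used for Ptch1, Gli2, Dhh and Hhip lie inside the annotated gene span and not at its outer end, so other starts of these genes are not covered.

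The co-receptors that present ligand to PTCH1 changed in opposite directions. Cdon and Boc encode related membrane proteins of the immunoglobulin superfamily, and Gas1 encodes a lipid-anchored protein. Cdon measured 32.18, 30.49 and 30.29 TPM in hypobaric hypoxia, against 23.21, 18.16 and 22.15 TPM in normal pressure, and rose with a log2 fold change of 0.54 (SE 0.11, limma adjusted p = 0.00431). Boc measured 25.82, 24.78 and 24.13 TPM in hypobaric hypoxia, against 19.31, 15.68 and 19.27 TPM in normal pressure, and rose by 0.45 on the log2 scale (limma adjusted p = 0.0122, and 0.0507 without hypoxia replicate 1). Gas1 measured 18.25, 16.07 and 21.60 TPM in hypobaric hypoxia, against 28.16, 22.83 and 27.98 TPM in normal pressure, and fell by 0.48 on the log2 scale (limma adjusted p = 0.0156, and 0.0824 without hypoxia replicate 2). None of the 3 overlapped between the groups, as was the case for 39.2% of all features.

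The list of co-receptors and membrane regulators had 15 tested genes, of which 5 rose (33.3%, beside 11.1% of all features) and 1 fell (6.67%, beside 7.20%), with a median log2 fold change of 0.27, beside 0.08 over all features. Beside Cdon and Boc, the risers were the glypican genes Gpc6 and Gpc3 and Evc2. Glypicans are cell-surface heparan sulfate proteoglycans that bind hedgehog ligands. Gpc6 averaged 21.3 ± 1.13 TPM in hypobaric hypoxia and 12.6 ± 1.22 TPM in normal pressure (log2 fold change 0.72, SE 0.11, limma adjusted p = 0.000431), and Gpc3 averaged 29.5 ± 1.14 and 20.2 ± 1.79 TPM (SD, n = 3 each). Evc2, whose product works with EVC at the base of the cilium downstream of SMO, averaged 27.9 ± 1.22 TPM in hypobaric hypoxia and 19.6 ± 1.58 TPM in normal pressure. Its partner Evc did not pass the test, with a log2 fold change of 0.28.

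Genes for ligand maturation and release gave no limma call among 6 tested, with a median log2 fold change of 0.15, and 1 of the 6, Scube3, had an unadjusted p under 0.05 (0.0412). They include Disp1, which encodes the exporter of lipid-modified ligand (9.93 ± 0.330 TPM in hypobaric hypoxia and 8.60 ± 1.21 TPM in normal pressure), Hhat, which encodes the palmitoyl transferase for the ligands (4.72 ± 0.221 and 4.36 ± 0.521 TPM), and Scube2, which encodes a secreted release factor (6.32 ± 0.633 and 6.19 ± 0.553 TPM), both in the same order. Scube3, which encodes a related release factor (7.45 ± 0.235 and 6.02 ± 0.802 TPM), was called as higher under each of the 3 other scalings. Among 27 tested intracellular regulators, 2 rose and none fell, a share of 7.41% beside 11.1% of all features, with a median of 0.14. Gpr161, which encodes a ciliary receptor that restrains the pathway, averaged 5.40 ± 0.612 TPM in hypobaric hypoxia and 3.89 ± 0.331 TPM in normal pressure (limma adjusted p = 0.0448). Arrb1, which encodes a beta-arrestin, averaged 25.3 ± 1.17 and 19.9 ± 1.80 TPM in the same order (limma adjusted p = 0.0425). Neither held without hypoxia replicate 1 or 2, without normal-pressure replicate 1, or with no filter on low values. Gpr161 was also not called without normal-pressure replicate 2 or 3 (limma adjusted p = 0.0641 and 0.0524). Arrb1 was also not called without hypoxia replicate 3 (limma adjusted p = 0.0895). Kif7, which encodes a ciliary kinesin of the pathway, did not pass (5.55 ± 0.439 and 4.33 ± 0.324 TPM in the same order).

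Genes known from other tissues as GLI targets were mixed. Of 18 tested, 1 of them also in the co-receptor list, 3 rose (16.7%, beside 11.1% of all features) and 1 fell (5.56%, beside 7.20%), and the median log2 fold change was 0.18. Mycn, which encodes a proliferation factor, measured 19.71, 18.20 and 15.00 TPM in hypobaric hypoxia, against 9.12, 9.88 and 11.91 TPM in normal pressure (log2 fold change 0.72, SE 0.13, limma adjusted p = 0.00127). Nr2f2, which encodes a nuclear receptor of theca and stroma, measured 73.99, 77.26 and 74.56 TPM in hypobaric hypoxia, against 51.31, 42.88 and 58.50 TPM in normal pressure (log2 fold change 0.57, SE 0.12, limma adjusted p = 0.00383). Both groups were apart for each gene. Foxm1, which encodes a mitotic transcription factor, averaged 10.9 ± 1.35 TPM in hypobaric hypoxia and 7.48 ± 0.815 TPM in normal pressure, and was not called without hypoxia replicate 2 (limma adjusted p = 0.0782). The cyclin gene Ccnd1 fell to 9.50 ± 2.01 TPM in hypobaric hypoxia, against 13.8 ± 1.75 TPM in normal pressure, and was not called without hypoxia replicate 2 (limma adjusted p = 0.15) or without normal-pressure replicate 3 (0.067).

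Primary cilium genes, which build the organelle where SMO acts, were called in 5 of 44 cases, all higher, a share of 11.4% that is close to the 11.1% over all features. Cc2d2a, a transition zone gene, averaged 29.3 ± 2.63 TPM in hypobaric hypoxia and 18.5 ± 2.16 TPM in normal pressure (SD, n = 3 each). Kif3a, which encodes a motor of transport into the cilium, averaged 11.2 ± 0.295 and 7.82 ± 0.818 TPM in the same order. The other calls were the transport gene Ift80 and the BBSome genes Bbs2 and Bbs9, with log2 fold changes of 0.65, 0.36 and 0.38. Ift80 was not called without normal-pressure replicate 2 (limma adjusted p = 0.128), after quantile normalization (0.0524) or after median-ratio scaling (0.0628). Bbs2 and Bbs9 were not called without any 1 hypoxia library or without normal-pressure replicate 1, and median-ratio scaling gave 7 higher and 5 lower in the list.

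**Figure D4:**
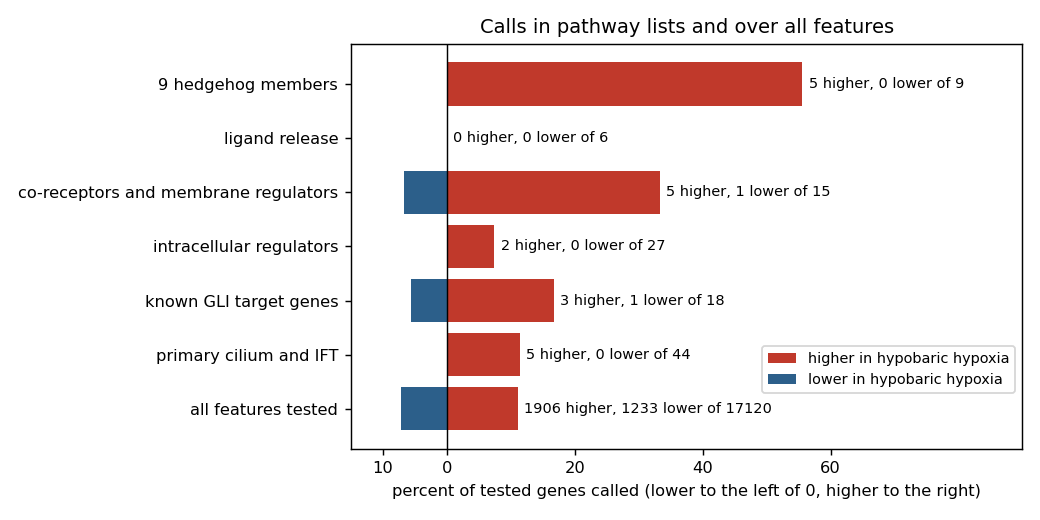
Percent of tested genes called by limma at an adjusted p under 0.05 (horizontal axis), higher in hypobaric hypoxia to the right in red and lower to the left in blue, for the 9 hedgehog genes, 5 lists of other pathway genes and all 17120 features. The 9 genes have 5 of 9 called higher, the co-receptor list 5 of 15, and the cilium list (with intraflagellar transport, IFT) 5 of 44, near the 11.1% of all features.

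Markers of the cells that receive the signal did not move together. The list of theca and steroidogenic stroma markers summed to 1020 to 1132 TPM in hypobaric hypoxia and 1241 to 1640 TPM in normal pressure, with 2 of 9 called higher (Insl3 and Enpep) and 3 lower (Mgarp, Ephx2 and Prlr), beside 11.1% and 7.20% of all features. Enpep was not called without hypoxia replicate 1 or 2, which left 1 higher. Aldh1a1 made the largest part of the sum, at 597 ± 17.4 TPM in hypobaric hypoxia and 723 ± 97.7 TPM in normal pressure (SD, n = 3 each). It did not pass the test (limma adjusted p = 0.177), but was called lower under each of the 3 other scalings and without normal-pressure replicate 2. Insl3, a theca peptide hormone gene, measured 51.45, 44.48 and 29.91 TPM in hypobaric hypoxia, against 9.17, 7.67 and 14.67 TPM in normal pressure. The theca enzyme gene Cyp17a1 measured 112.27, 94.80 and 107.34 TPM in hypobaric hypoxia, against 132.43, 69.46 and 93.86 TPM in normal pressure, and did not pass the test. The fibroblast stroma list summed to 643 to 711 TPM in hypobaric hypoxia and 753 to 882 TPM in normal pressure, with 2 of 9 higher (Mfap5 and Nr2f2, the second also in the target list) and 3 lower (Dcn, Lum and Col1a1). The luteal list summed to 2149 to 2818 TPM in hypobaric hypoxia and 5184 to 7954 TPM in normal pressure, with 11 of 12 called lower. No gene of these 3 lists was at 0 in all 6 libraries, and the part of luteal, theca or stromal content in the values of Ptch1, Gli1 and Gli2 was not tested.

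The genes most like a hedgehog gene were found by the Euclidean distance between log2(TPM + 1) profiles centred over the 6 libraries, among 10659 protein-coding genes with a mean of at least 5 TPM. Nearest to Ptch1 was Fbxl7 at a distance of 0.057, with 70.8 TPM in hypobaric hypoxia and 46.3 TPM in normal pressure, followed by Stard9 (0.0873) and Abhd3 (0.0924). Nearest to Ihh were Zfp41 (0.105), Btg4 (0.114) and H2ac21 (0.12), and nearest to Dhh were Kif26a (0.118), Ankrd39 (0.125) and Folr1 (0.126). Nearest to Gli1 were Ank2 (0.142), Mgme1 (0.144) and Tcirg1 (0.157), and nearest to Hhip were Nup160 (0.0933), Kat2a (0.111) and Adam1a (0.111). None of the 9 hedgehog genes was among the 3 nearest to any of these 5, out of 10659 genes. The other 4 were in the pool searched, but their own nearest genes were not sought. How near the hedgehog genes lay to each other is not given here.

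**Figure D5:**
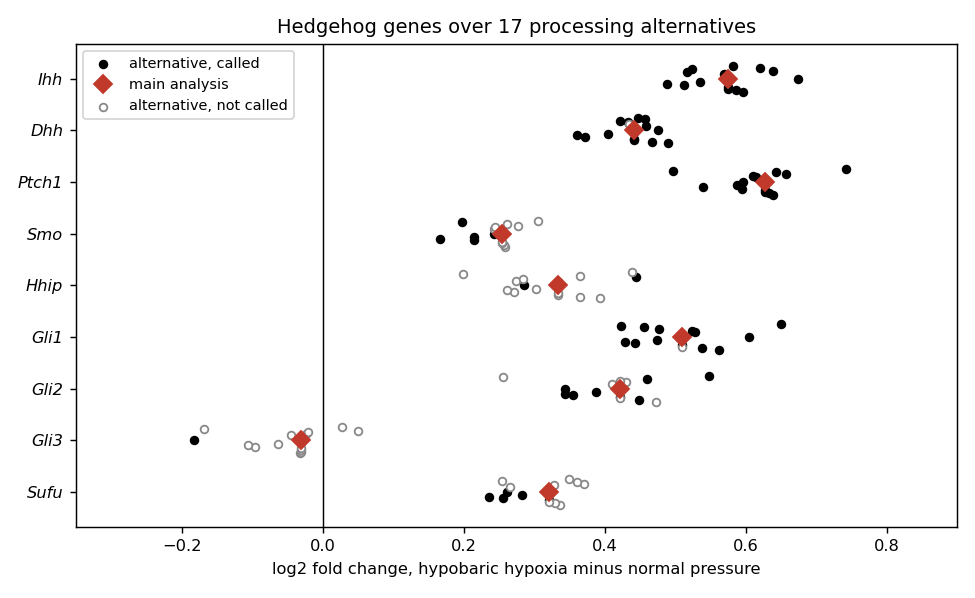
Log2 fold change, hypobaric hypoxia minus normal pressure (horizontal axis), of each hedgehog gene in the main analysis (red diamond) and in 17 processing alternatives (circles, black where the adjusted p was under 0.05, open where not). Ihh and Ptch1 were called in all 17, Dhh and Gli1 in 16, Gli2 in 11, Sufu in 8, Smo in 5, Hhip in 4 and Gli3 in 1. The 17 include array weights, which did not converge, are not relied on and gave the only call of Gli3.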

How the data were processed

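Ovary RNA was sequenced in 6 libraries, in 2 groups of 3 taken from the sample titles. Per the labels' protocols, RNeasy columns and a SMARTer mRNA kit were used. Per the submitters' processing notes, HISAT2, Bowtie2 and DESeq2 were used, with no versions or roles, on GRCm38.p6. How reads were counted is not given in the sources used here. Values are TPM as deposited by the authors for 33036 features, whose columns summed to 998175 to 998954. TPM keeps no read depth, so no counting interval is given. In R 4.3.3, limma 3.58.1 (trend setting on) was fitted on log2(TPM + 1) over 17120 features with at least 1 TPM in at least 3 libraries, with Benjamini-Hochberg adjustment over all of them, two-sided, and was tested on simulated data. The 17 alternatives changed pseudocount, filter, scaling, variance prior, library weights, feature set, replicate block or left out 1 library. The hedgehog genes, lists and naming rule (all 9 genes and, per list, every call where 6 or fewer, otherwise the 4 highest and 4 lowest, a few preset genes and the 3 nearest profiles) were chosen with earlier results of these data known. The within-library ratios, and the uncalled genes Evc, Kif7, Disp1, Hhat, Scube2 and Scube3 and the markers named beside list sums, were chosen after their values were seen. Promoters came from RefSeq for GRCm38.p6. Some genes of the fixed lists are not reported here.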

Additional observations from a re-analysis of the deposited data

How the results depend on the processing

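Leaving out 1 library at a time gave 3 to 5 hedgehog genes called higher, 0 called lower, a median log2 fold change of 0.26 to 0.45, and 2065 to 3998 features called in all, beside 5, 0, 0.42 and 3139 in the main analysis. The 0.26 came without normal-pressure replicate 2, where the median over all features was 0.00128. The count of 3 (Ihh, Ptch1 and Gli1) came without hypoxia replicate 2. With no filter on low values 3 hedgehog genes were called higher and 1233 features in all. Quantile normalization, median-ratio scaling and the protein-coding total without Zfp949 gave 6171, 5896 and 6275 features in all and 7 hedgehog genes higher in each (Smo and Sufu added). Array weights did not converge and gave 9064 features, 8 hedgehog genes higher and 1 lower (Gli3, log2 fold change -0.18), and a value of -0.31 for Cyp17a1, against 0.13 in the main analysis, and are not relied on. To look for pairing, each gene was centred on its group mean, and what remained was correlated between libraries of unlike group. Same-numbered libraries then had correlations of -0.0341, 0.11 and -0.0502 for replicates 1, 2 and 3, beside -0.0794 to 0.114 for libraries of unlike number. Without this centring, libraries of unlike group correlated at 0.958 to 0.977. With 3 libraries per group these values cannot settle whether the numbers pair the samples. A fit with the replicate block called 4117 features and 7 hedgehog genes higher, with a median log2 fold change of 0.42. The other settings moved the count over all features and that of hedgehog genes by less than 1.5 times. Among the pathway lists, the cilium genes were called higher and lower in 5 and 0 cases in the main analysis, 8 and 3 after quantile normalization, 7 and 5 after median-ratio scaling, 10 and 2 with the protein-coding total and 2 and 0 with no filter. The intracellular regulators gave 2 and 0, then 5 and 1, 4 and 3, 6 and 1, and 0 and 0 in the same order, the GLI targets 3 and 1, then 6 and 1, 4 and 2, 6 and 1, and 2 and 0, and ligand release 0 and 0, then 1, 1 and 2 higher with the 3 scalings. Over all features, 1906 were called higher and 1233 lower in the main analysis. The 3 scalings gave 3399 and 2772, 2761 and 3135, and 3752 and 2523 in that order, and no filter gave 687 and 546. The list counts are to be read beside these. Robust variance and protein-coding genes alone gave 4 intracellular calls each, beside 3949 and 3462 features in all. TPM keeps no depth, so the counting error of low genes such as Hhip is unknown.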

Other observations

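Marker lists of other cells that a whole ovary can hold gave these values. Endothelial markers summed to 165 to 168 TPM in hypobaric hypoxia and 127 to 163 TPM in normal pressure. Of 8, 1 was called higher (Cldn5, 12.5% beside 11.1% of all features) and none lower. The count was 0 higher without any 1 hypoxia library or normal-pressure replicate 1, and 2 higher when normal-pressure replicate 3 was left out. Tek was also called higher under each of the 3 other scalings. Emcn was after quantile normalization and with the protein-coding total, and Pecam1 and Esam were with the protein-coding total. More features in all were called under these scalings too. The counts of the lists that follow stand beside 7.20% of all features called lower and 11.1% called higher. Smooth muscle and pericyte markers summed to 492 to 571 TPM in hypobaric hypoxia and 659 to 712 TPM in normal pressure, with 3 of 8 lower (Tagln, Cnn1 and Des). Oviduct epithelium markers summed to 230 to 453 TPM and 519 to 776 TPM, with Ovgp1 called lower of 6, and 3 lower without hypoxia replicate 3. Ovarian surface epithelium markers gave 2 lower of 6 (Krt8 and Krt19), with 0 lower without hypoxia replicate 2 and also without normal-pressure replicate 3, and 1 when normal-pressure replicate 2 was left out. Adipose markers gave 5 lower of 5 tested, but 0 without normal-pressure replicate 2. Erythroid markers gave 5 higher of 5, and macrophage markers no call of 6 (Cd68 alone at an unadjusted p under 0.05), but 3 lower under each of the 3 other scalings. Limma's adjusted p under 0.05 was the call throughout.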
